A study of Drosophila melanogaster with 2 samples.

Results

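lncRNA:CR44357 and CG1677 are a pair of overlapping genes on the X chromosome of Drosophila melanogaster that share a transcription start site (TSS) and are read from the minus strand. lncRNA:CR44357 (FBgn0265457) is annotated as a noncoding RNA gene at chrX:7166451-7405797 on build dm6 and spans 239.3 kb. CG1677 (FBgn0029941) is protein-coding, lies at chrX:7281089-7405797 and spans 124.7 kb. Both members were chosen by the number of peak summits between their ends in these same data, so the counts and signals below are a description, and no test was made. The domain is the window from 5 kb before to 5 kb after the longer gene, chrX:7161451-7410797. It held 12 of the 2704 peaks in the list that passed the threshold of irreproducible discovery rate (IDR), a measure of how well the order of peak heights repeats from one replicate to the next. It also held 79 of the 30000 peaks of the relaxed list made from both replicates together, 66 of 30000 in the relaxed list of replicate 2 and 74 of 30000 in that of replicate 3. Relaxed lists hold weak peaks and background beside the strong ones and are the input to the IDR step.

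The lists come from chromatin immunoprecipitation with sequencing (ChIP-seq) on whole embryos of both sexes, 0 to 24 h old. Per the labels, the embryos came from a stable transgenic line that makes CG13123 with green fluorescent protein at its C terminus, and an antibody against that tag was used. The 2 samples, biological replicates 2 and 3, form 1 group, so no conditions were compared, and the peaks of a list are not replicates of one another. Both share 1 donor label, the labels name no promoter for the transgene, and whole embryos mix all cell types of all these ages. Read depth is not given in the files and is unknown, and neither the control nor a precipitation from flies without the tag was analysed here.

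A long noncoding RNA gene is transcribed into RNA that is not translated, and in flies such genes, like long introns of coding genes, often carry whole other genes inside them. In ChIP-seq a peak summit is the position where most precipitated fragments pile up, and it can fall at a promoter, at an enhancer in an intron or between genes. A well studied gene inside this domain is brk, which encodes Brinker, the repressor of target genes of the BMP ligand Dpp, and brk itself is held off where Dpp signals. The roles of lncRNA:CR44357 and CG1677 are not described here.

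The sequences at 6 of the 12 IDR summits are shown because they are the strongest peaks, the peak nearest to brk, and the peaks outside CG1677. Each run is 201 bases centred on the summit, read 5′ to 3′ on the plus strand of the Release 6 genome from RefSeq (dm6). Capitals mark matches on either strand to the letters CAGTG, the E-box CAGCTG, the GAGA element GAGAG, the DNA replication-related element TATCGATA or the CTCF core AGGTGGCGC. All distances in kb run from the shared start in the direction of transcription.
Upstream of CBP, summit at 68.8 kb, chrX:7336941-7337141: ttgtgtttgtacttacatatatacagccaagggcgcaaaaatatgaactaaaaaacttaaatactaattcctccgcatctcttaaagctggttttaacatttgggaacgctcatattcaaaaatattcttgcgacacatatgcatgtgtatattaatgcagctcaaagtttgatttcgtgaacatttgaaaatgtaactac
Intron of Dok, summit at 80.8 kb, chrX:7324922-7325122: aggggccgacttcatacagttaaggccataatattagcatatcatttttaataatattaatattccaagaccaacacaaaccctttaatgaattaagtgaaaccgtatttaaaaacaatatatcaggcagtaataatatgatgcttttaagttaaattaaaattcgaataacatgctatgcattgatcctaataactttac
Upstream of CBP, summit at 69.5 kb, chrX:7336203-7336403: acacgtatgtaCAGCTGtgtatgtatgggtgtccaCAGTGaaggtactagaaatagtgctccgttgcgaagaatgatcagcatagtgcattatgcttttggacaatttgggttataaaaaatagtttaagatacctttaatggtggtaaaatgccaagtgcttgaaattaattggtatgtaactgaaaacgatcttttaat
Upstream of brk, summit at 98.6 kb, chrX:7307096-7307296: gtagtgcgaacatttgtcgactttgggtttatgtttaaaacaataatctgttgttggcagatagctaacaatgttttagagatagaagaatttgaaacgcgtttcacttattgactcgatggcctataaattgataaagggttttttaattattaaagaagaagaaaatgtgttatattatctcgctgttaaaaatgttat
Intron of lncRNA:CR44357, summit at 128.6 kb, chrX:7277125-7277325: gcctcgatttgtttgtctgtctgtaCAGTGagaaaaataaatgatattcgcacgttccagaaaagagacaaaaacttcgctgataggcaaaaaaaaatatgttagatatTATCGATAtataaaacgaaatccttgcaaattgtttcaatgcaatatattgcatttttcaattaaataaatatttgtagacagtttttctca
Intron of lncRNA:CR44357 past the end of Cph, summit at 163.7 kb, chrX:7242021-7242221: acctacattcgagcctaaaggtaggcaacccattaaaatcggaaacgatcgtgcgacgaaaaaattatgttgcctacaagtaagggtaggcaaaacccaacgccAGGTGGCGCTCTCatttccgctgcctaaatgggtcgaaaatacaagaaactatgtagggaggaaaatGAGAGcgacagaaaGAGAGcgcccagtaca

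The 2 strongest peaks of the domain carried none of the marked motifs, and the windows at 69.5, 128.6 and 163.7 kb carried some. The windows at 68.8, 80.8 and 98.6 kb held no capitals. The TATA box letters TATAAA were searched too but are not marked, and the windows at 69.5, 98.6 and 128.6 kb held them. The window at 69.5 kb held 1 CAGTG, as part of ACAGTG, and 1 CAGCTG. The window at 128.6 kb held 1 CAGTG, again as part of ACAGTG, and TATCGATA, from 9 to 16 bases from the summit towards higher coordinates. The window at 163.7 kb held 3 GAGAG and 1 AGGTGGCGC, with AGGTGGCGC from 4 to 12 bases from the summit towards higher coordinates. One of its GAGAG matches, on the minus strand, shares a base with AGGTGGCGC. The search for AGGTGGCGC was added after this window had been read. CAGTG was in 47.2% of other IDR windows and GAGAG in 22.0%, so such matches are common.

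**Figure D1:**
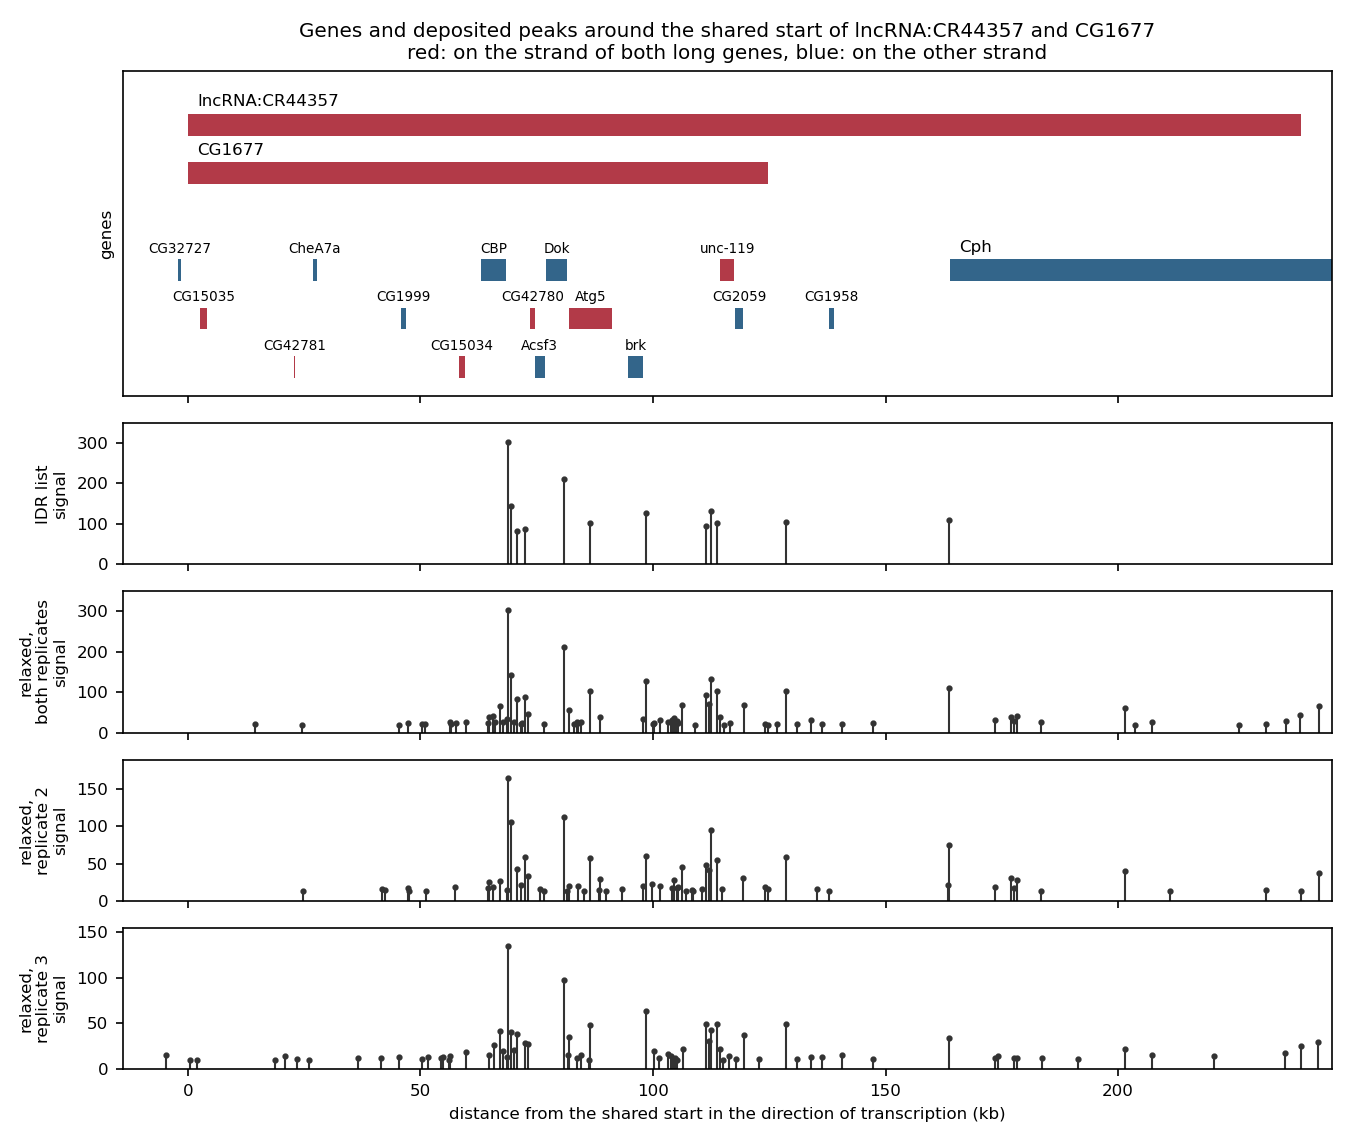
Gene models (top) and summit signals (4 lower panels) against distance from the shared start in kb, in the direction of transcription. Each stem is 1 deposited peak and its height is the authors' signal. The 12 IDR stems stand between 68.8 and 163.7 kb, 11 of them between CBP and CG1958, and the stretch from the start to CBP holds only relaxed peaks of low signal.

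The 12 IDR summits stood far from the start that both genes share, and 11 of them lay within 59.8 kb. The nearest was 68.8 kb from the shared start and the farthest 163.7 kb. The relaxed summit of both replicates nearest to the shared start lay 9439 bp from it, past the edge of the domain, with a signal of 40.3. In replicate 2 the nearest lay at 9403 bp with a signal of 26.9, and replicate 3 had one at 409 bp with a signal of 10.2 and rank 27179 of 30000. Neither long gene had an IDR summit at the start they share. The stretch from the end of CBP to the window edge beyond the start, 68.1 kb long, held 10 relaxed summits of both replicates with signals up to 25.5. It held 7 in replicate 2, up to 17.9, and 17 in replicate 3, up to 18.4. None of these reached the IDR list.

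All 12 IDR summits fell in introns of lncRNA:CR44357, and 10 of them in an intron of CG1677 as well. CG1677 reaches that far only through 1 of its 4 annotated transcripts, which begins at the shared start. The other 3 transcripts lie within chrX:7281089-7286195, 5.1 kb long, and held 0 IDR summits. The longest intron of the transcript from the shared start, chrX:7284759-7358660, 73.9 kb long, held all 10. It held 53 relaxed summits of both replicates, these 10 among them, 46 of replicate 2 and 44 of replicate 3. The longest intron of lncRNA:CR44357, chrX:7167291-7277914, 110.6 kb long, held the other 2. No IDR summit lay in an exon of either gene, and exons make up 1.17% of lncRNA:CR44357 and 3.89% of CG1677. Among relaxed summits of both replicates, 1 lay in an exon of lncRNA:CR44357 with a signal of 42.6, and 1 in a coding exon of CG1677 with a signal of 20.1.

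At 1 of the 2 start sites of the shorter CG1677 transcripts the data showed a weaker peak. A relaxed summit of both replicates lay 57 bp from a CG1677 start and 106 bp from a start of CG2059, a gene that runs the other way, and had a signal of 68.0 and rank 3229. It lay 1375 bp from the other of these CG1677 starts. In replicate 2 its signal was 31.2 with rank 5486, and in replicate 3 it was 37.7 with rank 2187. The lowest signal in the IDR list was 75.5. The summit was thus among the 2704 highest of replicate 3, while in replicate 2 and in the list of both replicates it was not.

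The signals of the 12 peaks lay inside the range of the rest of the X, and a pair of peaks stood above the others. Their median signal was 107, with a range of 82.1 to 303.4, against a median of 109 and a range of 75.9 to 1012.3 over the rest of the X and a median of 113 over the rest of the list. The signal is the authors' own value for each peak and is used to order peaks within a list, since no source states its scale. The highest belonged to the summit at 68.8 kb, 311 bp upstream of CBP, which ranked 154 of 2704 with 303.4. The next was at 80.8 kb in an intron of Dok, which ranked 367 with 210.5. Both led the domain in each replicate too. The CBP peak had 164.6 in replicate 2 and 134.4 in replicate 3, and the Dok peak had 112.2 in replicate 2 and 97.9 in replicate 3. CBP encodes a calcium-binding protein and is not the fly CREB-binding protein gene nejire. Dok encodes an adaptor protein of the downstream of kinase family.

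The gaps before brk and before CBP held most of the cluster. The gap from unc-119 to brk, 16.6 kb, and the gap from CG42780 to CBP, 5.2 kb, held 8 of the 12 IDR summits in 21.8 kb. Between CG42780 and CBP the summits at 72.4, 70.7, 69.5 and 68.8 kb had signals of 87.0, 82.1, 143.1 and 303.4, so the signal was highest nearest to CBP. In replicate 2 their signals were 58.8, 42.7, 105.4 and 164.6, and in replicate 3 they were 28.6, 38.2, 40.4 and 134.4, so the last was the highest in both. Their distances from one another were 1672, 1249 and 738 bp. The gap held 9 relaxed summits of both replicates, 7 of replicate 2 and 7 of replicate 3. The body of CBP held no IDR summit and 6 relaxed summits of both replicates, with signals from 24.9 to 65.3.

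In the gap from unc-119 to brk, 3 summits stood close to unc-119 and 1 close to brk. The Caenorhabditis elegans gene of the name unc-119 is needed in the nervous system. The summits at 113.7, 112.6 and 111.5 kb lay 775, 1924 and 3049 bp upstream of its start, with signals of 102.4, 132.1 and 93.8. In replicate 2 their signals were 54.6, 95.5 and 48.7, and in replicate 3 they were 49.4, 42.5 and 48.9, so the middle one stood out in replicate 2 only. The summit at 98.6 kb lay 743 bp upstream of brk and had a signal of 127.6, with 60.7 in replicate 2 and 63.1 in replicate 3. At the start of brk itself there was only a relaxed summit, at 57 bp, with a signal of 33.1, which replicate 2 also had with 20.5 and replicate 3 did not have. Between unc-119 and brk a further 14 relaxed summits of both replicates stood outside the IDR list, with signals from 19.5 to 71.1. So 4 of the 18 relaxed summits in this gap were IDR summits, and over the whole relaxed list 9.01% were.

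The remaining 4 IDR summits were spread over Atg5, Dok and the far part of lncRNA:CR44357. Atg5, which encodes a protein of the autophagy conjugation system, held the summit at 86.5 kb in an intron, 4502 bp downstream of its start, with a signal of 103.2, and ranked 1860 in replicate 2 and 1406 in replicate 3. The Dok summit lay 808 bp downstream of the Dok start. The summit at 128.6 kb had a signal of 103.6, with 59.3 in replicate 2 and 49.4 in replicate 3, and lay 7652 bp past the nearest CG1677 start, beyond the end of that gene. The summit at 163.7 kb had a signal of 110.5, with 74.5 in replicate 2 and 33.9 in replicate 3, and lay 15666 bp from the nearest start, one of Cph. Cph, or Chronophage, encodes a zinc-finger transcription factor of neural stem cells. The part of Cph inside the window held 0 IDR summits and 13 relaxed ones, with signals from 19.4 to 65.1.

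Most IDR summits of the domain stood off promoters. Of the 12, 1 lay within 500 bp of a TSS, the CBP peak, which is 8.33% with a 95% Wilson interval of 1.5 to 35.4, and 56.2% of all IDR summits did. Among the 2704 highest peaks of replicate 3 alone it was 3 of 14, and the share over all of those peaks was not counted. Over the rest of the X the count was 216 of 435, or 49.7% with an interval of 45.0 to 54.3. Few summits at starts were also seen in most of the 5 long genes nearest to lncRNA:CR44357 in IDR summits per 100 kb. The counts were 1 of 6 in Dys, 0 of 4 in Antp, 1 of 7 in Eip75B, 2 of 5 in lncRNA:CR44999 and 0 of 4 in jing. In the shorter genes ush and CHES-1-like they were 1 of 10 and 2 of 7. Wilson intervals here cover counting error only. The median distance to a TSS was 1558 bp in the domain, 514 bp over the rest of the X and 315 bp over the rest of the list. More than 2000 bp from any TSS lay 5 of 12 in the domain, or 41.7%, against 26.4% over the rest of the X. For 8 of the 12, the summit lay upstream of its nearest start, and for 4 it lay within 1000 bp. Neither count was made over the rest of the list, so neither is read as a trait of the domain. Relaxed summits of the domain were also away from starts, 10 of 79 or 12.7% within 500 bp, against 30.0% of relaxed summits elsewhere.

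**Figure D2:**
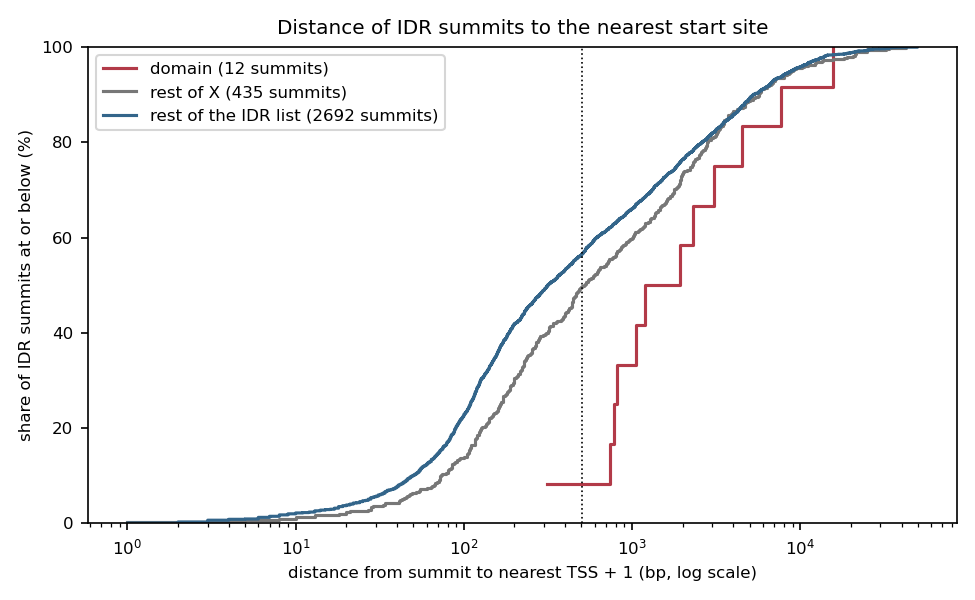
Cumulative share of IDR summits against distance to the nearest TSS plus 1, in bp on a log axis, with a dotted line at 500 bp, for the domain, the rest of the X and the rest of the list. Only 1 of the 12 domain summits lies within 500 bp, where the curve of the rest of the X has reached 49.7%.

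Counted by gene, CBP was again the only case. Of the 18 genes that overlap the window, 1 had an IDR summit within 500 bp of a start, CBP, while 11.8% of all genes did. Of the 16 besides the 2 long genes, 9 had a relaxed summit of both replicates there, where 45.9% of all genes did. These were CG2059, unc-119, brk, Atg5, Dok, Acsf3, CG42780, CBP and CG1999, and outside CBP their signals ran from 22.3 to 68.0. Atg5 and Dok, whose starts face away from each other, shared a summit with a signal of 56.2, at 34 bp from Atg5 and 410 bp from Dok. It had 19.6 in replicate 2 and 35.4 in replicate 3. Cph, CG1958, CG15034, CheA7a, CG42781, CG15035 and CG32727 had none. CheA7a belongs to a family of secreted chemosensory proteins, and Acsf3 to the acyl-CoA synthetases.

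The 2 replicates placed the 12 peaks at nearly the same positions and differed in their order. All 12 had a relaxed summit within 100 bp in both replicates, as did 95.6% of the IDR list. The IDR list holds the 2704 peaks of highest signal in the relaxed list of both replicates. Its peaks were thus chosen for their height in both replicates together, so such matches were largely fixed by the choice of list. Matching within 100 bp also caps the distances given next. The distance from the summit of both replicates was 2.50 bp in replicate 2 and 13.5 bp in replicate 3 at the median, and at most 35 and 67 bp. Of the 12, 10 were among the 2704 highest of each replicate, a count that was not made for the whole IDR list. The exceptions were the summit at 72.4 kb, which ranked 3515 in replicate 3 with 28.6, and the summit at 70.7 kb, which ranked 3088 in replicate 2 with 42.7. Both lie in the gap before CBP.

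Of the 12 peaks, 4 ranked higher in the list of replicate 2 and 8 in that of replicate 3. This split was not counted over the rest of the IDR list, so it is not read as a trait of the domain. The summit at 163.7 kb ranked 1105 in replicate 2 and 2635 in replicate 3, and the summit at 112.6 kb ranked 669 in replicate 2 and 1757 in replicate 3. The summit at 72.4 kb ranked 1769 in replicate 2 and 3515 in replicate 3. The summit at 69.5 kb was number 3 of the 12 in replicate 2 with 105.4 and number 9 in replicate 3 with 40.4, so below the Dok peak the replicates did not share the order. Spearman's rho between replicates was 0.350 and Pearson's r of log2 signals 0.631 over the 12, which come from the same pair of libraries and were chosen for their height in the list of both. Over the 28 relaxed peaks of the domain matched in both replicates, rho was 0.755 and r was 0.771.

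**Figure D3:**
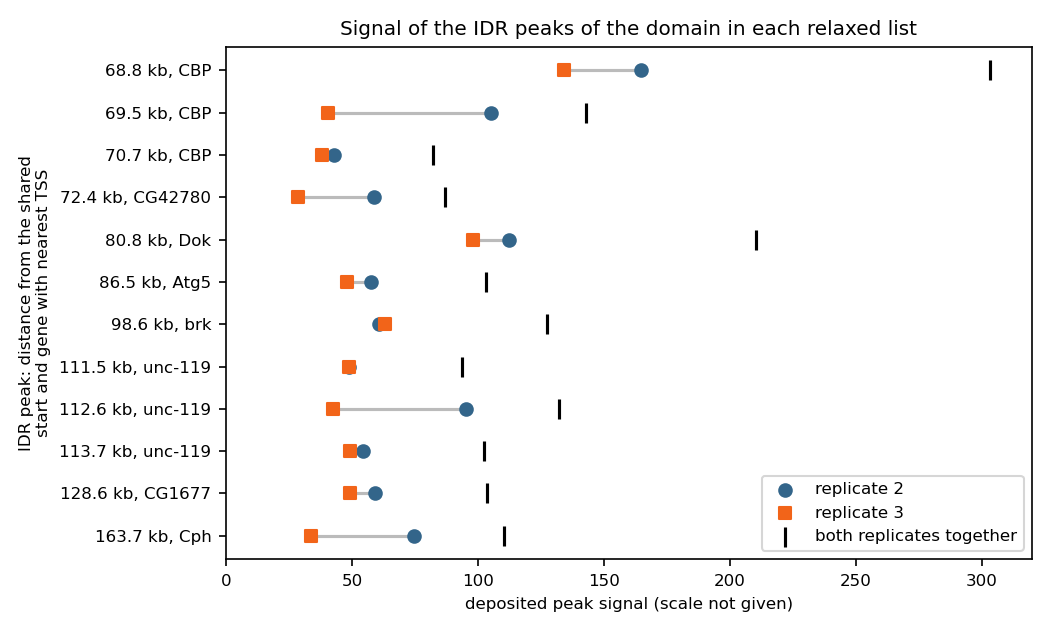
Signal of the 12 IDR peaks in replicate 2 and replicate 3 (deposited values, 1 point per replicate) and in the list of both (tick), by distance from the shared start in kb. The CBP peak with 164.6 and 134.4 and the Dok peak with 112.2 and 97.9 lead in both replicates. The scale of the signal is not stated, so values are to be read within a list.

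Most relaxed peaks under the IDR threshold were not matched in both replicates. Of the 67 relaxed peaks of the domain outside the IDR list, 16 had a summit within 100 bp in both replicates, or 23.9%, against 28.1% outside the domain. A further 16 had one in replicate 2 only, 18 in replicate 3 only and 17 in neither. Just inside the IDR threshold stood the summit at 70.7 kb with 82.1, and just outside it one between unc-119 and brk with 71.1 and rank 2987. Among each replicate's own 2704 highest peaks the domain held 11 of 66 in replicate 2, all near an IDR summit. It held 14 of 74 in replicate 3, of which 11 were near one. These are 16.7% and 18.9%, where the whole list of each replicate has 2704 of 30000, or 9.01%. The other 3 were the summits at the CG1677 and CG2059 starts with 37.7, at the Atg5 and Dok starts with 35.4, and in an intron of CBP with 41.7.

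The domain was denser in IDR summits than the X around it, which its choice fixed. IDR summits made up 15.2% of its relaxed summits of both replicates, with a Wilson interval of 8.9 to 24.7, where 9.01% is the share over the whole list and 9.21% over the rest of the X. It held 4.81 IDR summits per 100 kb, against 1.87 over the rest of the X. Relaxed summits, which include the IDR summits, were at 31.7 per 100 kb in the list of both replicates, against 20.3 over the rest of the X. They were at 26.5 against 19.9 in replicate 2 and at 29.7 against 19.4 in replicate 3. Neighbouring IDR summits were 5754 bp apart at the median, with 5 of 11 spacings at or under 5 kb, against 21586 bp and 24.2% over the rest of the X. In the 5 long genes nearest in IDR summits per 100 kb, median spacings ran from 5880 bp in Eip75B to 34090 bp in jing. Their IDR shares of relaxed summits ran from 7.04% in lncRNA:CR44999 to 21.4% in Dys. The shorter genes had 3911 bp and 23.8% in ush, and 2060.5 bp and 35.0% in CHES-1-like. The nearest IDR summits beyond the window were 43.5 kb to the left with a signal of 85.1 and 142.8 kb to the right with 84.5. The IDR cluster ended inside the noncoding gene on its far side and before the shared start on the other.

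Among genes of at least 100 kb the pair led in count, and it was chosen for that count, so its place is a description only. Of 89 such genes on the 6 main arms, lncRNA:CR44357 had the most IDR summits with 12 and CG1677 the next with 10. The 86 that do not overlap the domain had a median of 0, and 48 of them had none. The highest outside was 8 in kirre, a cell adhesion gene of myoblast fusion, over 394.1 kb. Per 100 kb, CG1677 stood first with 8.02 and lncRNA:CR44357 at place 3 with 5.01, behind Eip75B, a nuclear receptor gene of the ecdysone response, with 6.15. CG1677 is this long only through 1 of its 4 annotated transcripts. The other 3 lie within 5.1 kb and held 0 IDR summits. Nearest to lncRNA:CR44357 in IDR summits per 100 kb were Dys, the dystrophin gene, with 4.41, Antp, a Hox gene, with 3.88, and Eip75B. Next came lncRNA:CR44999 with 3.34 and jing with 3.34. Shorter genes were denser. ush, 64.3 kb long, had 10 IDR summits or 15.5 per 100 kb, and CHES-1-like, 27.0 kb long, had 7 or 25.9 per 100 kb. The 2 long genes share 10 of their summits and also hold many genes. There are 15 inside lncRNA:CR44357, CG1677 among them, and 13 inside CG1677, against a median of 3.00 over long genes elsewhere.

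**Figure D4:**
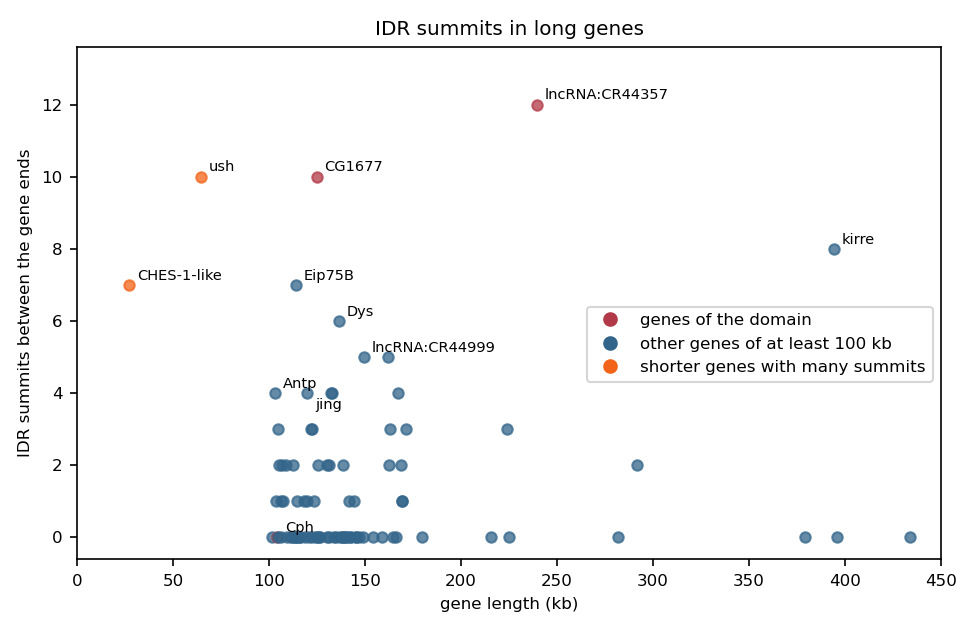
IDR summits between the gene ends against gene length in kb, 1 point per gene of at least 100 kb, with ush and CHES-1-like added. lncRNA:CR44357 with 12 and CG1677 with 10 stand above the other long genes, of which kirre has the most with 8. Both were chosen for their number of summits, and the 10 of CG1677 are also among the 12.

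The windows under the IDR summits of the domain were rich in A and T, and most of the searched motifs were found in 3 of them or fewer. Their median GC content was 29.4%, with a range of 23.9 to 46.8, against 38.8% for the other relaxed summits of the domain, 34.8% for other IDR summits and 37.8% for background summits. The GC content of the whole domain was 42.3% and that of the X 42.5%. CAGTG was found in 3 of the 12 windows, or 25.0%, against 47.2% of other IDR windows and 32.7% of 26730 background windows. At 200 bp to each side the order turned, with 83.3% in the domain, against 68.2% of other IDR windows and 51.7% of background windows. ACAGTG, which contains CAGTG, was in 16.7%, against 19.8% and 10.2%, and ACACTG in none, against 19.8% and 10.4%. CAGCTG was in 8.33%, against 9.03% and 8.06%, and GAGAG in 16.7%, against 22.0% and 21.3%. TATCGATA was in 8.33%, against 4.75% and 1.74%. The Zelda motif CAGGTAG was in none, against 0.892% and 0.913%. The TATA box letters TATAAA were in 6 of the 12 windows, against 37.0% of other IDR windows and 29.0% of background windows. AGGTGGCGC, added after the window at 163.7 kb had been read, was in 8.33%, against 0.966% and 0.299%. With 12 windows, 1 match is 8.33%, so these shares describe single peaks. A match is a string of letters and not a binding site.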

How the data were processed

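CG13123-GFP was precipitated from whole embryos in 2 samples, biological replicates 2 and 3, which form 1 group. Per the labels and the deposited file lists, peak calling used a control, on each replicate and on both together, and the IDR step then gave the IDR list. Aligner, peak caller and IDR threshold were not given in the sources used here. Each peak carries a signal value deposited by the authors on a scale that no source states, and no read counts, so no depth could be set beside a value. The dm6 lists were used, and the dm3 lists were not used here.

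Summits were placed on genes of Ensembl release 115, with transposable elements kept apart, and on the Release 6 genome, with Python 3.11.15, NumPy 2.4.6 and SciPy 1.17.1. A summit counted as at a start within 500 bp, and lists were matched within 100 bp. Background windows for motifs centred on relaxed summits over 500 bp from every IDR summit. The functions were tested on simulated data. The named genes are both members, all genes overlapping the domain, those nearest to its IDR summits, ush, CHES-1-like and the 5 long genes nearest in IDR summits per 100 kb; kirre was named after its value was seen. The members and lists were chosen with earlier results of these data known. Alternatives changed the flank, list threshold, start distance, start set, matching distance, motif window and replicate. With 1 group of 2 samples, no test was made.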

Additional observations from a re-analysis of the deposited data

How the results depend on the processing

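Of 50 alternatives, 14 moved a value beyond its counting interval or, for a count, spacing or density, by over 1.5 times. Some of the other 36 also shifted, since intervals over 12 peaks are wide. The count of 12 IDR summits became 5 among the 1352 IDR peaks of highest signal and 19 among the 5408 highest relaxed peaks of both replicates, and the summits per 100 kb became 2.01 and 7.62. The share of 15.2% became 6.33% with the 1352 peaks and 24.1% with the 5408. Over the whole relaxed list these cuts keep 1352 and 5408 of 30000 peaks. The 9.01% given above holds for 2704 peaks only and is no baseline for these 2 shares. The count at starts was 0 within 200 bp and 4 within 1000 bp. The share over all IDR summits was taken at 500 bp only and is no baseline for these 2 counts. The share of windows with CAGTG was 0% at 50 bp to each side and 83.3% at 200 bp, where other IDR windows had 22.3% and 68.2%. Without the transcript from the shared start, an alternative chosen after seeing the data like the AGGTGGCGC search, CG1677 held 0 IDR summits in place of 10. Using each replicate's own 2704 highest peaks in turn gave 11 to 14 summits in the domain, shares of 16.7% to 18.9%, 1 to 3 at starts, spacings of 4513 to 7055 bp, 4.41 to 5.61 per 100 kb and 9 to 12 in CG1677. The share over the whole list of each replicate is 9.01%. The count of 3 at starts came from replicate 3 alone, without replicate 2. Shares at starts over all 2704 highest peaks of each replicate were not counted. The cause of these moves was not tested, beyond the number of peaks that each list holds. No paired analysis was possible because both samples belong to 1 group. Depth was unknown, and with 12 peaks each share moves by 8.33 percentage points per peak.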
